A study of Mus musculus with 24 samples.

Results

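The transcripts of inguinal white fat (iWAT) were set against those of epididymal white fat (eWAT) in mice that had received the irisin vector and eaten chow. The comparison takes 3 iWAT and 3 eWAT libraries, 6 of the 24 libraries of the series, and every gene that reached 0.5 FPKM in 3 or more of these 6. That rule kept 15028 of the 54532 genes in the deposited table, and transcripts of skeletal muscle in the iWAT libraries were set apart. All libraries are from C57BL6 mice. The 2 groups compared here had AAV-irisin, an adeno-associated virus for the hormone irisin, and chow. The same depots are also set side by side in mice with AAV-GFP, the control virus, on chow, and in mice with AAV-irisin on a high-fat diet (HFD), again 3 libraries a group. Feeding lasted 18 weeks in every group, on either diet. The labels name neither the tissue that the virus entered nor sex, age or the mouse behind each library. P-values therefore measure the spread between these libraries, which may be technical.

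Inguinal fat lies under the skin of the groin, and epididymal fat lies in the abdomen beside the epididymis and is covered by mesothelium, a sheet of epithelium-like cells. The depots arise from different parts of the embryo, and in mice their adipocytes and stromal cells keep different sets of developmental transcription factors, among them Tbx15 and Shox2 in subcutaneous fat and Wt1 and Tcf21 in visceral fat. Inguinal fat can also take on features of heat-producing (beige) fat. In whole tissue, fewer cells of a type and less RNA per cell cannot be told apart.

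The 6 libraries held 14.1 M to 18.4 M reads over genes, counted back from the deposited values, so that 1 FPKM in a gene of 2000 bases stood for 29.1 to 37 reads. Levels are in FPKM, fragments per kilobase of gene scaled to library depth. A log2 fold change, given with its SE, is iWAT minus eWAT of log2(FPKM + 0.5), and for weakly expressed genes it is smaller than the true ratio. Genes are called where the p from limma, adjusted by Benjamini and Hochberg over all genes tested, was under 0.05. With 3 libraries against 3 an exact permutation p cannot go below 0.1. A gene under 0.5 FPKM throughout 1 depot can pass the filter only through the other, which fixes the direction of its fold change. The list counts and medians below include such genes and are not read as support for a direction. The adipocyte genes Adipoq, Fabp4, Plin1 and Lpl were read in all 6 libraries, as in fat.

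Skeletal muscle transcripts set one iWAT library apart and are given before the other results. The summed FPKM of 73 muscle genes was 299.6, 568.6 and 6644 in iWAT libraries 1, 2 and 3, against 127.6, 146.6 and 119.7 in eWAT. These genes took 0.0676%, 0.145% and 1.76% of the reads in iWAT, against 0.0343%, 0.0339% and 0.0317% in eWAT. All 73 were above 0 in iWAT library 3, and 68 reached 1 FPKM there, against 13 to 14 in each eWAT library. Ckm, the muscle creatine kinase, had 4.83, 17.2 and 279 FPKM in iWAT, against 0 FPKM in all 3 eWAT libraries (adjusted p = 0.0304), at least 1639-fold higher at a floor of 3 reads a library. Library 3 carries that bound, which is 180-fold without it. Myh4, a fast myosin heavy chain, had 11.9, 32.9 and 543 FPKM in iWAT, against 0.00997, 0 and 0 FPKM in eWAT (log2 fold change 6.92 ± 1.24, adjusted p = 0.0155). Acta1, the skeletal alpha-actin, had 30.9, 99 and 1614 FPKM in iWAT, against 17.1, 39.5 and 20.6 FPKM in eWAT, so that iWAT library 1 fell between the eWAT libraries. Tnnt3, Atp2a1 and Pvalb reached 508, 435 and 383 FPKM in iWAT library 3, against at most 0.448, 0.222 and 0.576 FPKM in eWAT. Myl1, a myosin light chain, had 30.7, 50.9 and 297 FPKM in iWAT, against 23.1, 21.9 and 17.2 FPKM in eWAT. Neither Acta1 (adjusted p = 0.239) nor Myl1 (adjusted p = 0.174) was called, with a wide spread between the iWAT libraries. The other 9 iWAT libraries of the series had muscle sums of 116 to 346 FPKM.

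Of the muscle list, 36 genes passed the filter on low values, and 30 further genes followed the same order over the iWAT libraries and were highest in library 3. These 66 genes form the set apart. The list's 9 called members were all higher in iWAT. Many list genes could pass the filter only through the 3 iWAT libraries, so no count or median over those that passed is read as support. Voom on the recovered reads called 1 of the 36, with 5 under an unadjusted p of 0.05, and limma with no filter called 2. Of the 30 others 1 was called, the imprinted noncoding RNA H19 (2.06, 3.42 and 10.2 FPKM in iWAT, against 0.0732, 0.132 and 0.0524 FPKM in eWAT). Without iWAT library 3 and with the same genes tested, 19 list members were called, and 1 when any 1 eWAT library was left out. The list includes genes that fat itself expresses, such as Cox8b with 84.9, 57.6 and 104 FPKM in iWAT, against 25.3, 26.5 and 23.6 FPKM in eWAT.

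**Figure D1:**
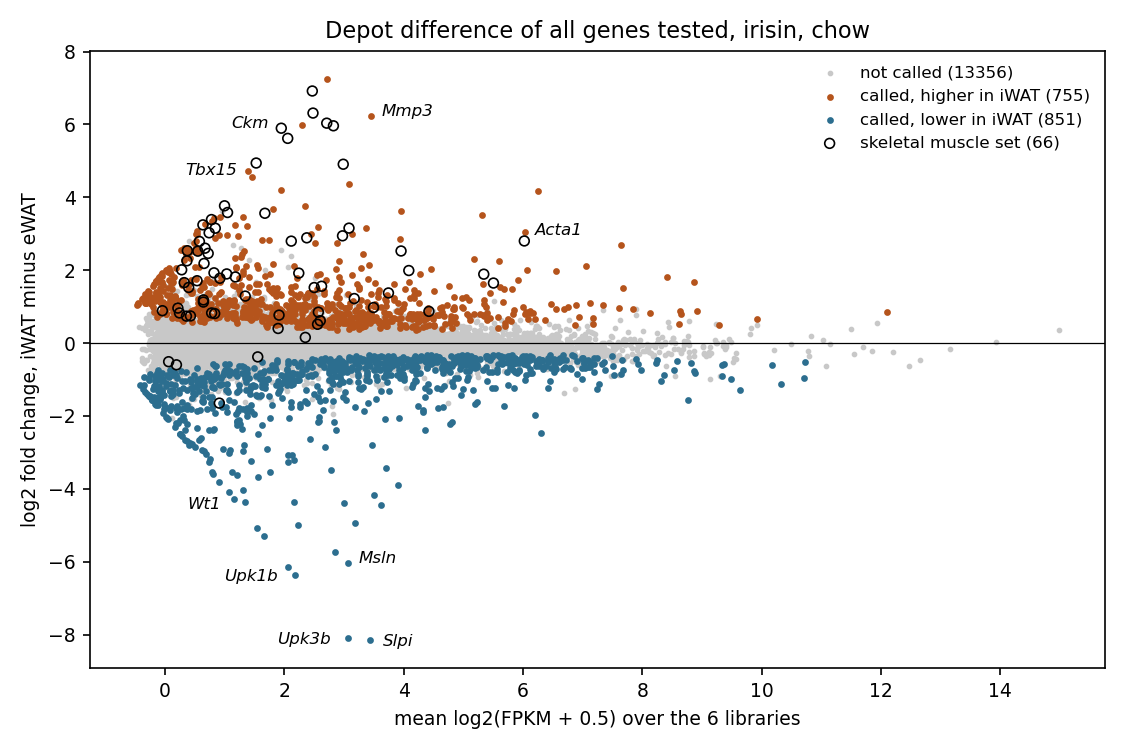
Log2 fold change (iWAT minus eWAT) of the 15028 genes tested against their mean log2(FPKM + 0.5) over the 6 libraries. Each point is a gene: 755 called higher in iWAT, 851 called lower in iWAT, 13356 not called, and rings for the 66 genes of the skeletal muscle set, most of which lie above 0.

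The depots differed widely. Outside the muscle set 755 genes were higher and 851 were lower in iWAT, of 14962 tested (5.05% and 5.69%). Over all 15028 genes 765 were higher and 851 lower, so that the background rate of calls is 10.8% in either direction, 5.09% higher and 5.66% lower. In 364 of the genes called higher and 343 of those called lower the difference was at least 2-fold. The median fold change of all genes tested was 0.00. Leaving out 1 library with the same genes tested called from 785 genes (without eWAT library 1) to 2083 (without iWAT library 2), and 804 and 1073 without eWAT library 2 and iWAT library 3. A single fit of the 4 chow groups called 964 genes (344 higher, 620 lower) and one of all 8 groups 765. Which direction held more calls depended on the method: voom on the recovered reads called 883 higher and 725 lower. Genes of connective tissue and limb or hind-body patterning stood among the largest rises, and genes of mesothelium and other epithelium among the largest falls.

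Developmental factors of the 2 depots differed in opposite directions. Of the 12 genes listed as developmental factors of subcutaneous fat 11 were tested, 10 were higher in iWAT and none lower, with a median of 1.87. Tbx15, a T-box factor of subcutaneous fat and skeleton, had 11.1, 14.2 and 13.6 FPKM in iWAT, against 0.016, 0.0144 and 0 FPKM in eWAT (log2 fold change 4.72 ± 0.14, adjusted p = 2.71e-05). The eWAT values stand for 1, 1 and 0 reads, against 607, 875 and 809 reads in iWAT. Shox2, a short-stature homeobox factor of the limb, had 7.61, 7.03 and 8.8 FPKM in iWAT, against 0.145, 0.212 and 0.409 FPKM in eWAT (log2 fold change 3.47 ± 0.17, adjusted p = 0.000135). En1 (engrailed 1), Tbx5, Pitx1, Prrx1 and Twist1, transcription factors of limb and body wall, were also higher, by 2.88, 1.27, 1.23, 2.04 and 0.95. Pitx1 and Tbx5 stayed at or under 1.04 FPKM in every library. Sfrp2, a secreted Wnt-binding protein, had 53.8, 66.8 and 27.1 FPKM in iWAT, against 13, 14.5 and 18.3 FPKM in eWAT.

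Of the 14 factors listed for visceral fat 11 were tested, 9 were lower in iWAT and none higher, with a median of -1.60. Wt1, the Wilms tumour factor of mesothelium and visceral fat progenitors, had 0.0111, 0 and 0.0204 FPKM in iWAT, against 8.22, 5.5 and 11.9 FPKM in eWAT (log2 fold change -4.08 ± 0.26, adjusted p = 0.000285). Tcf21, a basic helix-loop-helix factor of visceral mesenchyme, had 0, 0.026 and 0 FPKM in iWAT, against 5.65, 5.38 and 5.21 FPKM in eWAT (log2 fold change -3.54 ± 0.13, adjusted p = 5.44e-05). Bnc1 (basonuclin 1), a zinc finger protein of epithelia, had 0 FPKM in all 3 iWAT libraries, against 7.1, 4.44 and 8.95 FPKM in eWAT, at least 165-fold lower in iWAT at the same floor. The gap was smaller in the others: Gata6 had 2.59, 2.62 and 2.11 FPKM in iWAT, against 7.78, 7.81 and 9.69 FPKM in eWAT, and Osr1 had 21.9, 23.2 and 17.5 FPKM in iWAT, against 58.1, 57 and 83.1 FPKM in eWAT. Both depots thus held Gata6 and Osr1, while Wt1, Tcf21 and Bnc1 were at or next to 0 in iWAT. Leaving out each library in turn, with the same genes tested, called 9 to 10 of the subcutaneous and 8 to 9 of the visceral factors.

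**Figure D2:**
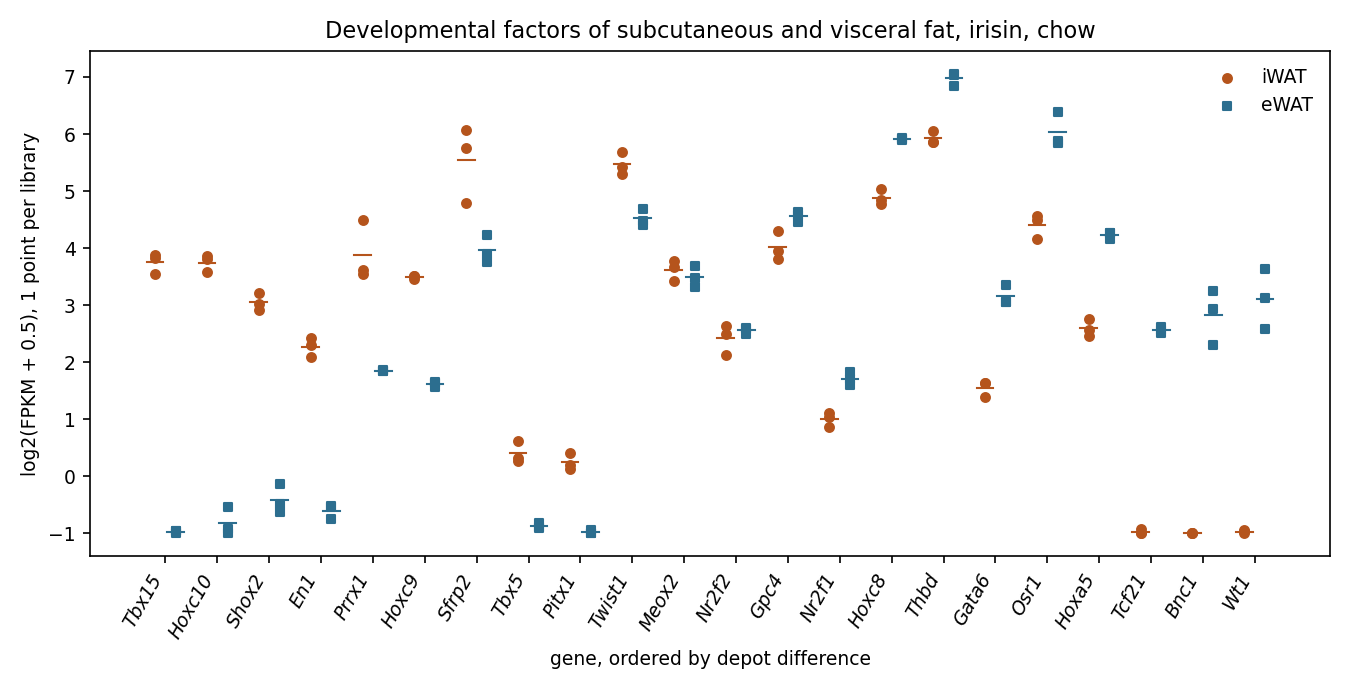
Level of the 22 developmental factors tested, as log2(FPKM + 0.5), with 1 point per library (circles iWAT, squares eWAT) and a line at each group's mean. Genes run from Tbx15, highest in iWAT relative to eWAT (4.72), to Wt1 (-4.08), and the points of iWAT and eWAT overlap at neither end.

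Of the Hox genes, homeobox factors that mark position along the body axis, those of the HoxA and HoxC clusters differed by paralog number. Of 39 Hox genes 25 were tested, and those called higher in iWAT were Hoxa9, Hoxa10, Hoxc9 and Hoxc10, all toward the 5' end of their cluster. Hoxc10 had 14, 11.5 and 13.5 FPKM in iWAT, against 0.189, 0.0283 and 0 FPKM in eWAT (log2 fold change 4.57 ± 0.17, adjusted p = 5.33e-05). Hoxa10 had 5.63, 5.07 and 5.22 FPKM in iWAT, against 0.0551, 0 and 0.0591 FPKM in eWAT (log2 fold change 3.43 ± 0.14, adjusted p = 6.89e-05). Hoxa9 had 5.31, 3.66 and 5.5 FPKM in iWAT, against 0.161, 0.164 and 0.185 FPKM in eWAT and Hoxc9 had 10.8, 10.4 and 10.8 FPKM in iWAT, against 2.59, 2.64 and 2.44 FPKM in eWAT, so Hoxc9 was read in both depots and Hoxc10 and Hoxa10 almost only in iWAT. Those called lower were Hoxa5, Hoxb4, Hoxc4, Hoxc8 and Hoxd8. Hoxa5 had 5.01, 5.39 and 6.26 FPKM in iWAT, against 18.6, 17.3 and 18.7 FPKM in eWAT (log2 fold change -1.63 ± 0.11, adjusted p = 0.000347). Hoxc8 had 32.5, 26.9 and 28.1 FPKM in iWAT, against 59.1, 59.6 and 60.7 FPKM in eWAT (log2 fold change -1.03 ± 0.09, adjusted p = 0.00143), next to Hoxc9 with the opposite sign. In the HoxB cluster 1 of 8 tested genes was called, 12.5% against 10.8% over all genes tested. That gene was Hoxb4 at -0.56 ± 0.13, and in HoxD 1 of 2 was called, Hoxd8 at -0.52 ± 0.10. Both of these calls were lost when any 1 eWAT library or iWAT library 1 was left out, while the 3 HoxA and 4 HoxC calls were made each time with the same genes tested. The sources used here do not say whether counting used strand, and 8.70% of the exon bases of Hoxc10 are shared with Hoxc5.

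**Figure D3:**
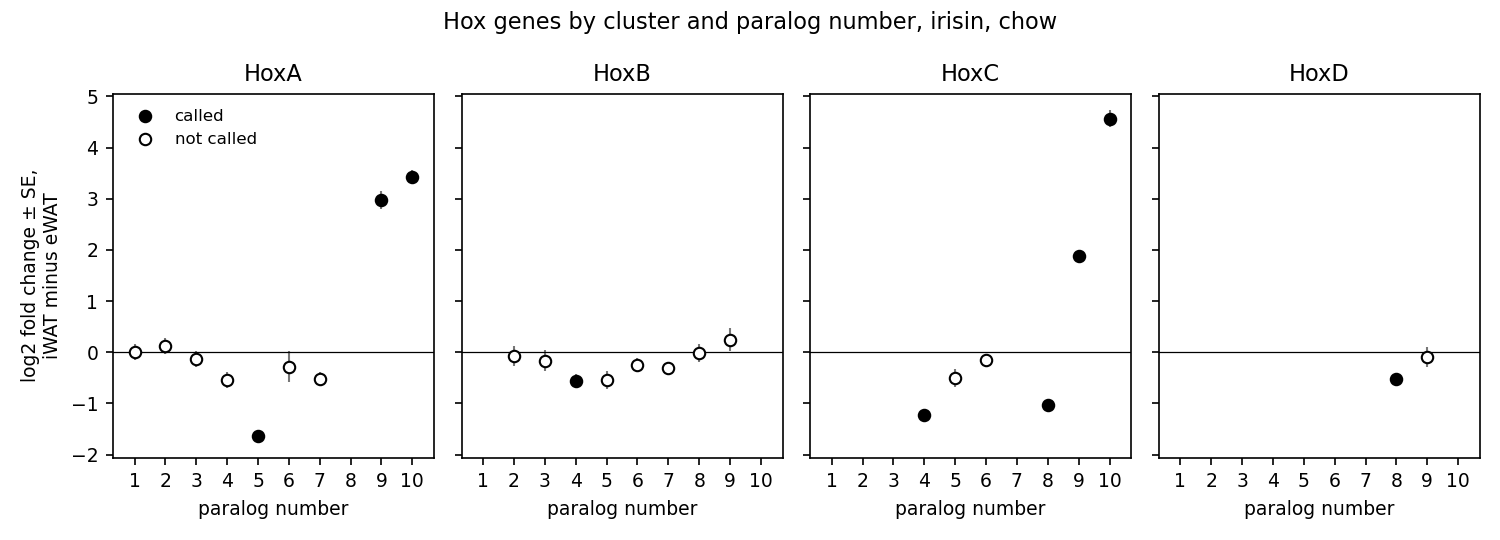
Log2 fold change ± SE (iWAT minus eWAT) of the 25 Hox genes tested against paralog number, 1 panel for each cluster, with filled points for called genes. The HoxA and HoxC panels climb at paralogs 9 and 10, with Hoxc10 at 4.57, while all HoxB and HoxD points lie between -0.56 and 0.25.

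The start regions of 4 genes are shown for the largest differences: in each direction the gene with the largest fold change of log2(FPKM + 0.5) among those named, and the developmental factor with the largest fold, that have a single entry in the RefSeq promoter table (build GRCm38.p6). Each runs 5′ to 3′ on the gene's strand, from 250 bases before the start to 50 bases after it. Mmp3 (stromelysin 1, a matrix protease) lies at chr9:7445572-7445871 (+) and Shox2 at chr3:66981722-66982021 (-), both higher in iWAT. Slpi, a secreted protease inhibitor of epithelia, lies at chr2:164356458-164356757 (-) and Bnc1 at chr7:81992250-81992549 (-), both lower in iWAT. Capitals mark matches on either strand to 4 motifs, none of which overlap here. The TATA box was searched as TATAAA. The AP-1 motif, bound by Fos and Jun proteins, was searched as TGANTCA. The CCAAT box was searched by its own letters. The GC box, bound by factors of the Sp family, was searched as GGGCGG.
Mmp3: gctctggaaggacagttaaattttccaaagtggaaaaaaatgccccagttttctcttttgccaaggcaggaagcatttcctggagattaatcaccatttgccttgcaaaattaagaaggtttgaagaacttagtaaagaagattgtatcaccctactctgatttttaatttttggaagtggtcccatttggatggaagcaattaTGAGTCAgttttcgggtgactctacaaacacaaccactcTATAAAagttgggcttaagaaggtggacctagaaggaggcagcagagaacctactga
Shox2: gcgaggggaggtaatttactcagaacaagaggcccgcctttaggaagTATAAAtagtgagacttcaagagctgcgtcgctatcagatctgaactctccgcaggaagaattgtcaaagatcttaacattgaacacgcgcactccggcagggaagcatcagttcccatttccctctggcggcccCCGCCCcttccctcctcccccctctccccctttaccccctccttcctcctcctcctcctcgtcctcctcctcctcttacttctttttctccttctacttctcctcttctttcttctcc
Slpi: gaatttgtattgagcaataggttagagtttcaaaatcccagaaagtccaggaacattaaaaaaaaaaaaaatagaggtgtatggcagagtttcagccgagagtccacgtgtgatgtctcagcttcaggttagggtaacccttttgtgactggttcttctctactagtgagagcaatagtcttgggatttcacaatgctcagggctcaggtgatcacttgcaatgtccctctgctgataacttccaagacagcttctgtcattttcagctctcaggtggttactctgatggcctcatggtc
Bnc1: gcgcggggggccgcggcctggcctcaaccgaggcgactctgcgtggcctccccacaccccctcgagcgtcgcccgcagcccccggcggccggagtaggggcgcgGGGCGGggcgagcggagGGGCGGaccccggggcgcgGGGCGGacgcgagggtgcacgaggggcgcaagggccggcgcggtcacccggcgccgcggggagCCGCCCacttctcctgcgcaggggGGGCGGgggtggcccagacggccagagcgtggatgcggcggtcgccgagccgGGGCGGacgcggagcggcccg

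The Mmp3 window holds 1 TATA box and 1 AP-1 motif, the Shox2 window 1 TATA box and 1 GC box, the Bnc1 window 6 GC boxes and the Slpi window none of the 4. GC content was 40% for Mmp3, 53.3% for Shox2, 43.3% for Slpi and 83.3% for Bnc1. Over the 32841 windows that RefSeq gives, 13.6% held the TATA box, 7.81% the AP-1 motif, 37.4% the CCAAT box and 35.7% the GC box. The TATA box stood in 12.6% of windows of genes called higher in iWAT and in 8.67% of those called lower, against 7.41% of windows of all genes tested. The GC box stood in 44.7% of windows of genes called higher and in 57.1% of those called lower, against 60.8% of all tested. The AP-1 motif stood in 9.13% and 7.98%, against 5.34% of all tested. These matches are a description of the letters and show no binding.

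Mesothelial genes were lower in iWAT. Of 16 markers tested 13 were lower in iWAT and 1 was higher, with a median of -4.12, or -4.42 with the 3 genes that are at 0 throughout iWAT set at their floor. Upk3b, a uroplakin of the mesothelial surface, had 0, 0.0173 and 0 FPKM in iWAT, against 154, 107 and 158 FPKM in eWAT (log2 fold change -8.09 ± 0.16, adjusted p = 4.74e-06), or 0, 1 and 0 reads against 9073, 6988 and 8674. Upk1b, its tetraspan relative, had 0 FPKM in all 3 iWAT libraries, against 46.5, 28.8 and 50.1 FPKM in eWAT, at least 453-fold lower in iWAT at the floor of 3 reads a library. Msln (mesothelin) had 0.357, 0.606 and 0.687 FPKM in iWAT, against 83.7, 46.5 and 77.8 FPKM in eWAT (log2 fold change -6.02 ± 0.24, adjusted p = 6.89e-05). Nkain4, a membrane protein that interacts with the sodium pump, had 0.72, 0.541 and 0.255 FPKM in iWAT, against 61.6, 38.9 and 59.3 FPKM in eWAT (log2 fold change -5.74 ± 0.24, adjusted p = 7.54e-05). Lrrn4, Gpm6a and Krt19 fell by 4.98, 4.40 and 4.44. In each of these genes eWAT library 2 was the lowest of the eWAT libraries, yet far above all iWAT libraries. The 1 member higher in iWAT was Igfbp5, a binding protein of insulin-like growth factors with wide expression, at 176, 226 and 210.1 FPKM in iWAT, against 127, 71.3 and 92.2 FPKM in eWAT. It made up most of the summed mesothelial list in iWAT, which was 208, 256 and 252 FPKM there, against 763, 470.5 and 719.8 FPKM in eWAT.

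Several other genes of epithelia were lower in iWAT, while the keratinocyte list was mixed. Slpi had 0.175, 0.155 and 0.107 FPKM in iWAT, against 200.5, 121 and 246 FPKM in eWAT (log2 fold change -8.14 ± 0.24, adjusted p = 2.71e-05). Lgals7 (galectin 7) had 0 FPKM in all 3 iWAT libraries, against 39.9, 24.2 and 43 FPKM in eWAT, at least 172-fold lower in iWAT. Krt8 (keratin 8) had 0 FPKM in all 3 iWAT libraries, against 25, 11.7 and 24.2 FPKM in eWAT, at least 206-fold lower. Chst4, a sulfotransferase, had 0 FPKM in all 3 iWAT libraries, against 21.4, 8 and 25.1 FPKM in eWAT, at least 215-fold lower in iWAT. Krt18, the keratin partner of Krt8, had 0.143, 0 and 0.044 FPKM in iWAT, against 13.4, 6.91 and 14.3 FPKM in eWAT. These keratins stand on the mammary list, whose 5 tested members were all lower in iWAT (3 of them without eWAT library 3), but mesothelium expresses them too. Milk genes and Epcam did not pass the filter, with Epcam at most 0.101 FPKM in iWAT, against at most 0.537 FPKM in eWAT. Krt14, a basal keratin, had 0 FPKM in all 3 iWAT libraries, against 11.9, 1.01 and 11.4 FPKM in eWAT, with eWAT library 2 far below the other eWAT libraries. Of 7 keratinocyte markers tested 3 were lower and 1 higher, 4 had a fold change above 0, and the median was 0.00. The count of calls fell to 2, 1 in each direction, without eWAT library 1 or eWAT library 3. The 1 called higher was Krtdap, a keratinocyte protein, with 5.46, 5.93 and 4.37 FPKM in iWAT, against 0.707, 0.159 and 0 FPKM in eWAT (log2 fold change 2.96 ± 0.32, adjusted p = 0.00267). Of 12 markers of epididymal epithelium 10 were at 0 in all 6 libraries, and the 1 tested, Lcn2 (lipocalin 2), is made by other cells too. Fmod (fibromodulin, a collagen-binding proteoglycan) had 2.03, 0.608 and 1.05 FPKM in iWAT, against 47.9, 43.5 and 59.8 FPKM in eWAT (log2 fold change -4.95 ± 0.29, adjusted p = 0.00024).

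Nerve and Schwann cell genes were higher in iWAT. Of 15 markers 13 were tested, 10 were higher and none lower, with a median of 2.45. Cdh19, a cadherin of Schwann cells, had 3.21, 3.3 and 2.91 FPKM in iWAT, against 0.0841, 0.0252 and 0.0151 FPKM in eWAT (log2 fold change 2.75 ± 0.15, adjusted p = 0.000175), and S100b, a calcium-binding glial protein, had 6.2, 4.27 and 5.32 FPKM in iWAT, against 0.93, 0.4 and 0.391 FPKM in eWAT. The iWAT and eWAT values overlapped in neither of them. The summed list was 196.1, 81.1 and 179.2 FPKM in iWAT, against 11.4, 8.84 and 11.1 FPKM in eWAT. Its low point in iWAT was library 2, so it did not follow the order of the muscle genes. With the same genes tested 8 to 11 markers were called when 1 library was left out.

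**Figure D4:**
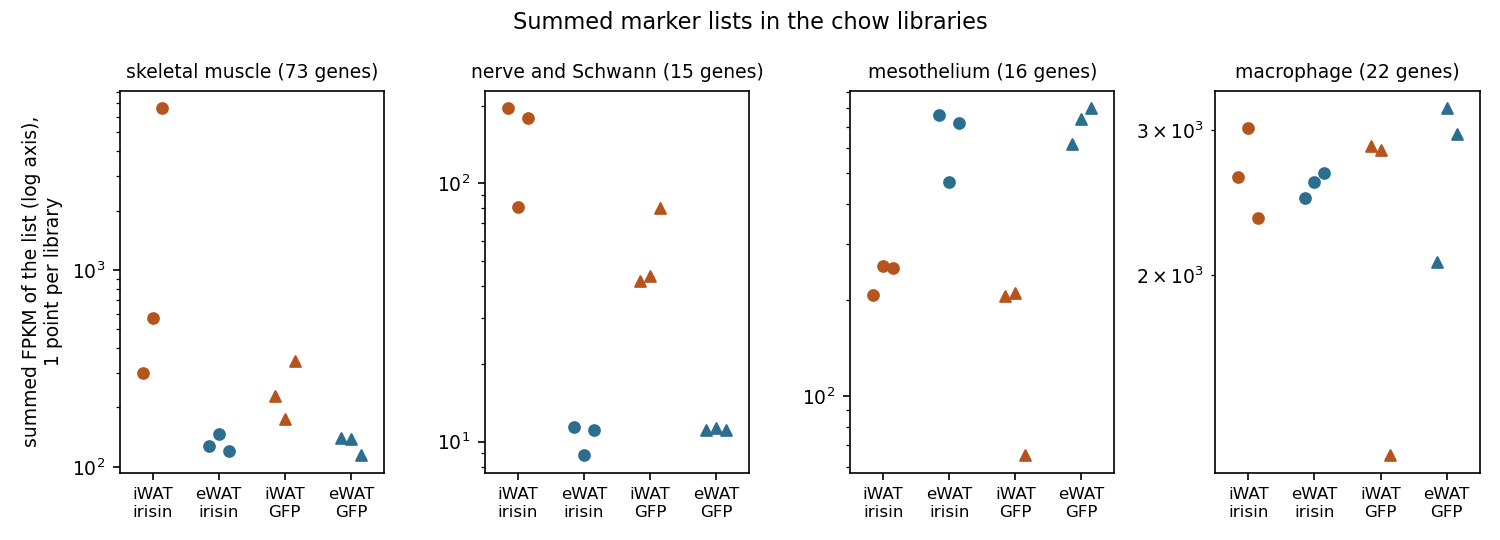
Summed FPKM of 4 marker lists in each chow library (log axis), with iWAT in orange and eWAT in blue, circles for AAV-irisin and triangles for AAV-GFP. Muscle reaches 6644 in a single iWAT library, nerve and mesothelium separate the depots under both vectors, and macrophage sums overlap.

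Connective tissue genes took several places among the largest rises. Mmp3 had 87.1, 128 and 76.6 FPKM in iWAT, against 0.7, 0.36 and 1.43 FPKM in eWAT (log2 fold change 6.24 ± 0.32, adjusted p = 0.000135). Ctsk (cathepsin K, a collagen-cutting protease) had 129, 172 and 108 FPKM in iWAT, against 12.4, 9.96 and 11.8 FPKM in eWAT (log2 fold change 3.5 ± 0.18, adjusted p = 0.000135). Wisp2, a matrix protein of the CCN family, had 18.1, 19.99 and 16.6 FPKM in iWAT, against 2.28, 0.393 and 0.57 FPKM in eWAT, and Myoc (myocilin) had 10.3, 23.5 and 17 FPKM in iWAT, against 0.579, 0.208 and 0.435 FPKM in eWAT. Apod, the lipid carrier apolipoprotein D, had 53.4, 62.8 and 47.1 FPKM in iWAT, against 3.91, 4.92 and 3.05 FPKM in eWAT (log2 fold change 3.63 ± 0.18, adjusted p = 0.000129). Gsc, the homeobox factor goosecoid, had 9.04, 15.7 and 12.3 FPKM in iWAT, against 0.142, 1.06 and 0.457 FPKM in eWAT (log2 fold change 3.67 ± 0.34, adjusted p = 0.00148). Groups that do not overlap were a condition for naming these 6 genes among the largest rises. Over all 15028 genes tested, 4831 (32.1%) had such groups.

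Collagens moved in both directions. Of 24 tested 9 were higher and 4 lower in iWAT, with a median of 0.58, and 11 to 15 were called when 1 library was left out with the same genes tested. Col6a3, a chain of the beaded collagen VI of fat, had 86.6, 71.8 and 83.5 FPKM in iWAT, against 14.3, 16.9 and 16.6 FPKM in eWAT (log2 fold change 2.30 ± 0.11, adjusted p = 0.000125). Col1a1, a chain of the main fibrillar collagen, had 595, 623 and 348 FPKM in iWAT, against 54.7, 80.4 and 109 FPKM in eWAT (log2 fold change 2.68 ± 0.31, adjusted p = 0.00314), and Col5a2 had 49, 56.2 and 40.7 FPKM in iWAT, against 18.6, 21.4 and 20.1 FPKM in eWAT. Col4a6, a basement membrane chain, had 0.276, 0.298 and 0.222 FPKM in iWAT, against 3.49, 2.53 and 4.86 FPKM in eWAT (log2 fold change -2.39 ± 0.22, adjusted p = 0.00148), and Col6a5 had 1.04, 1.38 and 0.53 FPKM in iWAT, against 8.47, 10.4 and 17.6 FPKM in eWAT. So the fibrillar chains named here were higher in iWAT and Col4a6 and Col6a5 lower.

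Of 20 stromal progenitor markers tested 6 were higher and 2 lower, with a median of 0.26. Pi16, a marker of early progenitors, had 126, 156 and 123 FPKM in iWAT, against 32.1, 29.3 and 38.1 FPKM in eWAT (log2 fold change 2.01 ± 0.14, adjusted p = 0.000388). Thy1, a surface glycoprotein of stroma and T cells, had 25.1, 35.1 and 31.1 FPKM in iWAT, against 9.94, 8.09 and 9.15 FPKM in eWAT, and Ly6a (Sca-1) had 309.8, 449 and 298 FPKM in iWAT, against 132, 121 and 109 FPKM in eWAT. The count was 5 when any 1 eWAT library was left out. In a single fit of all 4 chow groups, which shares the spread, it was 3.

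Secreted Wnt and BMP signals moved in both directions. Among 25 Wnt pathway genes tested 6 were higher and 4 lower. The ligand Wnt2 had 4.99, 11.7 and 6.81 FPKM in iWAT, against 0.346, 0.311 and 0.372 FPKM in eWAT (log2 fold change 3.22 ± 0.28, adjusted p = 0.00115), and the ligand Wnt2b had 0.425, 0.638 and 0.391 FPKM in iWAT, against 19.5, 15.4 and 25.6 FPKM in eWAT (log2 fold change -4.37 ± 0.20, adjusted p = 0.000125). Rspo1, an enhancer of Wnt signals, had 2.51, 1.35 and 2.9 FPKM in iWAT, against 53, 40.1 and 50.2 FPKM in eWAT, and Dkk2, a Wnt inhibitor, had 3.35, 4.9 and 2.17 FPKM in iWAT, against 0.0648, 0.0291 and 0.0348 FPKM in eWAT. Wnt2 and Dkk2 were thus higher, and Wnt2b and Rspo1 lower, in all iWAT libraries than in any eWAT library. Among 29 genes of the TGF-beta and BMP pathways 4 were higher and 4 lower. The BMP antagonist Nog (noggin) was lower, with 0.607, 0.36 and 0.932 FPKM in iWAT, against 4.78, 5.86 and 3.69 FPKM in eWAT. The ligand Bmp4 was lower too, with 3.51, 3.58 and 2.61 FPKM in iWAT, against 9.72, 9.01 and 13.3 FPKM in eWAT, while the BMP-binding protein Bmper was higher, with 10.6, 10.3 and 11 FPKM in iWAT, against 5.07, 6.79 and 5.75 FPKM in eWAT. The fits of 4 and 8 groups called 4 of these genes, all lower in iWAT, so no member was called higher there.

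Of 16 retinoid genes tested 5 were lower in iWAT and 1 was higher, with a median of -0.27. Aldh1a2, an enzyme that makes retinoic acid, had 1.49, 1.27 and 1.98 FPKM in iWAT, against 22.9, 16.1 and 30.2 FPKM in eWAT (log2 fold change -3.47 ± 0.24, adjusted p = 0.000419). Its relative Aldh1a1 had 29.1, 29.1 and 27.8 FPKM in iWAT, against 70.02, 67 and 66.5 FPKM in eWAT. Rarres1, a gene induced by retinoids, had 0.984, 0.506 and 0.906 FPKM in iWAT, against 4.48, 3.46 and 3.75 FPKM in eWAT. In the system of insulin-like growth factors (IGF) 4 of 14 were higher and 2 lower, and Igfbp2 had 0.0743, 0 and 0 FPKM in iWAT, against 3.15, 3.57 and 2.58 FPKM in eWAT (log2 fold change -2.77 ± 0.17, adjusted p = 0.000276). The IGF count of 6 was 2 without eWAT library 2 or iWAT library 3, and 1 in the fit of the 4 chow groups.

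Macrophage genes showed smaller differences. Of 21 macrophage markers tested 11 were higher and none lower, with a median of 0.63. Cd68, a lysosomal protein of macrophages, had 57.1, 54.6 and 54.8 FPKM in iWAT, against 33.3, 27.6 and 32.8 FPKM in eWAT (log2 fold change 0.82 ± 0.10, adjusted p = 0.00369). C1qa, a chain of complement C1q, had 352, 423 and 350.1 FPKM in iWAT, against 224, 215 and 193 FPKM in eWAT (log2 fold change 0.83 ± 0.12, adjusted p = 0.00663), and the lectin receptor Clec4a1 had 17.5, 18.2 and 15.2 FPKM in iWAT, against 7.7, 9.36 and 7.65 FPKM in eWAT. The summed list overlapped, at 2628, 3013 and 2346 FPKM in iWAT, against 2478, 2591 and 2657 FPKM in eWAT. It includes Lpl (lipoprotein lipase), which adipocytes also make and which had 694, 668 and 564 FPKM in iWAT, against 891, 953 and 742 FPKM in eWAT. Leaving out eWAT library 1, 2 or 3 called 7, 7 and 6 macrophage markers, and in a single limma fit of the 4 chow groups 0 were called, with 2 under an unadjusted p of 0.05.

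The chemokines Ccl8 and Cxcl14 were among the largest rises. Ccl8 had 322, 444 and 235 FPKM in iWAT, against 23.5, 15.4 and 14.8 FPKM in eWAT (log2 fold change 4.17 ± 0.26, adjusted p = 0.000285), and Cxcl14 had 52.3, 32.5 and 32.8 FPKM in iWAT, against 1.28, 1.68 and 1.16 FPKM in eWAT (log2 fold change 4.38 ± 0.21, adjusted p = 0.000125). Il1r2, a decoy receptor for interleukin-1, had 30.01, 68.9 and 27.9 FPKM in iWAT, against 0.0629, 0.0849 and 0.203 FPKM in eWAT (log2 fold change 5.99 ± 0.33, adjusted p = 0.000189). For these genes too, groups that do not overlap were a condition of naming.

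Of 9 mast cell markers 4 were higher, with a median of 0.77. Mcpt4, a mast cell chymase, had 65.5, 78.5 and 65.9 FPKM in iWAT, against 25.3, 13.7 and 32.6 FPKM in eWAT (log2 fold change 1.61 ± 0.29, adjusted p = 0.0159), and Cma1 had 47.2, 58.2 and 47.9 FPKM in iWAT, against 24.8, 15.4 and 29.3 FPKM in eWAT. No mast cell marker was called by limma without eWAT library 1, or in the fit of the 4 chow groups, which had 2 under an unadjusted p of 0.05. Of 10 genes for MHC class II presentation 4 were higher, with a median of 0.82. Cd74, the invariant chain, had 752, 663 and 560.5 FPKM in iWAT, against 423, 309.7 and 334 FPKM in eWAT (log2 fold change 0.89 ± 0.16, adjusted p = 0.0171), and H2-Ab1 had 313, 273 and 233 FPKM in iWAT, against 186, 112 and 132 FPKM in eWAT. None of these was called without eWAT library 2, eWAT library 3 or iWAT library 1, or in the limma fit of the 4 chow groups, which had 5 under an unadjusted p of 0.05. Of 28 interferon response genes 9 were higher and none lower, with a median of 0.41. Oasl1 had 4.63, 4.04 and 3.73 FPKM in iWAT, against 1.73, 0.952 and 1.19 FPKM in eWAT (log2 fold change 1.39 ± 0.19, adjusted p = 0.00555), and the regulator Irf7 had 16.2, 15.2 and 18.8 FPKM in iWAT, against 9.88, 9.31 and 7.9 FPKM in eWAT. The interferon count was 5 without eWAT library 2 or iWAT library 1, and 4 in the fit of the 4 chow groups.

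T and NK cell markers were sparse, with 5 of 14 tested and 2 called higher, Thy1 and Ncr1. Ncr1, an NK cell receptor, had 0.579, 1.03 and 0.615 FPKM in iWAT, against 0.195, 0.0701 and 0.0837 FPKM in eWAT, and its call was lost when any 1 library was left out with the same genes tested. None of 6 B cell markers tested was called by limma or by voom, and 1 was under an unadjusted p of 0.05. Ighm, the heavy chain of IgM, had 292, 169 and 415 FPKM in iWAT, against 694, 464 and 426 FPKM in eWAT (adjusted p = 0.149), each iWAT library below every eWAT library, and Ighd, that of IgD, had 2.89, 1.12 and 1.76 FPKM in iWAT, against 1.29, 1.19 and 1.05 FPKM in eWAT (adjusted p = 0.340).

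The series title names IL-33 and its receptor ST2, which drive type 2 immune cells in fat. Il33 had 7.52, 6.97 and 3.11 FPKM in iWAT, against 8.88, 4.75 and 10.2 FPKM in eWAT (log2 fold change -0.43 ± 0.38, adjusted p = 0.551), and the depots overlapped. Il1rl1, the gene of ST2, had 3.3, 2.86 and 2.57 FPKM in iWAT, against 1.45, 1.48 and 1.88 FPKM in eWAT (log2 fold change 0.70 ± 0.15, adjusted p = 0.0281), so every iWAT value was above every eWAT value. That call was lost without eWAT library 1, eWAT library 2 or iWAT library 1. Il4ra, a receptor chain for interleukins 4 and 13, had 28.8, 23.8 and 14.3 FPKM in iWAT, against 7.23, 10.2 and 9.46 FPKM in eWAT (log2 fold change 1.23 ± 0.26, adjusted p = 0.027). Its call was lost on leaving out any library but iWAT library 3. Penk (proenkephalin) had 13.9, 14.2 and 11.8 FPKM in iWAT, against 46.6, 48.6 and 42.8 FPKM in eWAT (log2 fold change -1.75 ± 0.10, adjusted p = 0.00024). In all, 2 of 15 tested genes of this list were higher and 1 was lower, with a median of 0.28, and the fit of the 4 chow groups called 1, lower in iWAT.

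Fndc5, whose product is cleaved to irisin, had 0.621, 1.21 and 2.93 FPKM in iWAT, against 0.456, 0.801 and 1.4 FPKM in eWAT (log2 fold change 0.49 ± 0.44, adjusted p = 0.554). Skeletal muscle expresses Fndc5, and its iWAT values stood in the order of the summed muscle genes. Its eWAT values rose from library 1 to 3 too, where the muscle sums were 127.6, 146.6 and 119.7 FPKM. Fndc5 averaged 0.490 FPKM in iWAT and 0.325 FPKM in eWAT of AAV-GFP mice on chow. In AAV-irisin mice on HFD it averaged 2.49 and 3.10 FPKM. The parts of muscle and of the vector in these values were not tested. Of 6 genes of the irisin precursor and its receptor 1 was called, 16.7% against 10.8% over all genes tested. The called gene was Itgb5, an integrin chain proposed as part of an irisin receptor. Itgb5 had 54.7, 47.4 and 48.5 FPKM in iWAT, against 73.3, 70.9 and 75.5 FPKM in eWAT (log2 fold change -0.54 ± 0.09, adjusted p = 0.0114). Its partner Itgav had 2.63, 5.74 and 2.88 FPKM in iWAT, against 3.44, 2.65 and 3.26 FPKM in eWAT (adjusted p = 0.770).

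Adipocyte genes differed by small amounts. Of 25 markers 4 were lower and 1 higher, with a median of -0.27. The direction of these calls depended on the libraries: without iWAT library 2 and with the same genes tested 4 were higher and 3 lower, and without eWAT library 2 or eWAT library 3 it was 1 higher and 2 lower. The limma fit of the 4 chow groups called 3, and that of all 8 groups 0, with 4 under an unadjusted p of 0.05, while voom called 6. Adipoq (adiponectin) had 1475, 1308 and 1463 FPKM in iWAT, against 2201, 1990.4 and 1909 FPKM in eWAT (log2 fold change -0.52 ± 0.13, adjusted p = 0.0462), a call that was lost whenever 1 library was left out. Lep (leptin) had 134, 126 and 109 FPKM in iWAT, against 156, 160.2 and 129 FPKM in eWAT (log2 fold change -0.27 ± 0.12, adjusted p = 0.232) and was not called. Retn (resistin) had 482, 525 and 517 FPKM in iWAT, against 1045, 1028 and 936 FPKM in eWAT (log2 fold change -0.98 ± 0.10, adjusted p = 0.00263). Cidec, a lipid droplet protein, had 1305, 974 and 1393 FPKM in iWAT, against 2221, 2397 and 2378 FPKM in eWAT, and Adrb3, the beta-3 adrenergic receptor, had 235, 179.8 and 257 FPKM in iWAT, against 391, 526 and 448 FPKM in eWAT. Of 17 lipogenesis genes 2 were lower, a share of 11.8% that stands beside 10.8% over all genes tested. Thrsp had 360.1, 194 and 231 FPKM in iWAT, against 956, 638 and 669.5 FPKM in eWAT. Elovl5 had 25.4, 23.5 and 26.5 FPKM in iWAT, against 35.1, 31.7 and 32.8 FPKM in eWAT. The lipogenesis count ranged from 1 without any 1 eWAT library or iWAT library 3 to 4 without iWAT library 1.

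Of 16 thermogenic and beige fat genes tested 7 were higher in iWAT and none lower, with a median of 0.48. Lhx8, a LIM homeobox factor, had 3.99, 3.3 and 3.79 FPKM in iWAT, against 0 FPKM in all 3 eWAT libraries, at least 52.4-fold higher at the floor of 3 reads a library. Cidea, a lipid droplet protein of brown and beige fat, had 13.7, 7.49 and 14 FPKM in iWAT, against 2.63, 3.62 and 2.99 FPKM in eWAT (log2 fold change 1.73 ± 0.25, adjusted p = 0.00704). Tmem26, a proposed beige marker, had 0.936, 2.16 and 1.5 FPKM in iWAT, against 0.0341, 0.102 and 0.22 FPKM in eWAT. Tbx1, another, had 0.917, 0.555 and 0.575 FPKM in iWAT, against 0.0341, 0.0921 and 0.0183 FPKM in eWAT. All of these were apart between the depots. Lhx8, Tmem26 and Tbx1 could pass the filter only through the 3 iWAT libraries, so the count of 7 is not read as support. Prdm16, a regulator of brown and beige identity, had 2, 1.58 and 1.86 FPKM in iWAT, against 0.908, 0.747 and 0.526 FPKM in eWAT. Ucp1, the uncoupling protein of heat production, had 0, 0 and 1 reads in iWAT, against 0, 1 and 0 reads in eWAT, and was not tested. The count was 3 without eWAT library 2, eWAT library 3 or iWAT library 1, and 4 without eWAT library 1 or iWAT library 3.

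Subunits of oxidative phosphorylation also differed by small amounts. Of 50 tested 11 were lower and none higher, 49 had a fold change below 0, and the median was -0.28. Cox8a had 559, 497 and 563 FPKM in iWAT, against 849.8, 812 and 761 FPKM in eWAT (log2 fold change -0.58 ± 0.11, adjusted p = 0.0178), and Ndufb10 had 80.04, 78.5 and 86.5 FPKM in iWAT, against 125, 115 and 108 FPKM in eWAT (log2 fold change -0.50 ± 0.09, adjusted p = 0.0167). The count moved with the libraries fitted, and the cause of that was not tested. By limma, with the same genes tested, none was called without eWAT library 1 or iWAT library 1. It was 1 without eWAT library 2, 4 without eWAT library 3, 3 without iWAT library 3 and 13 without iWAT library 2. In the main fit 29 were under an unadjusted p of 0.05. With quantile normalization 6 were called, with array weights 18, and in the fits of 4 and 8 groups 5 and 0.

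**Figure D5:**
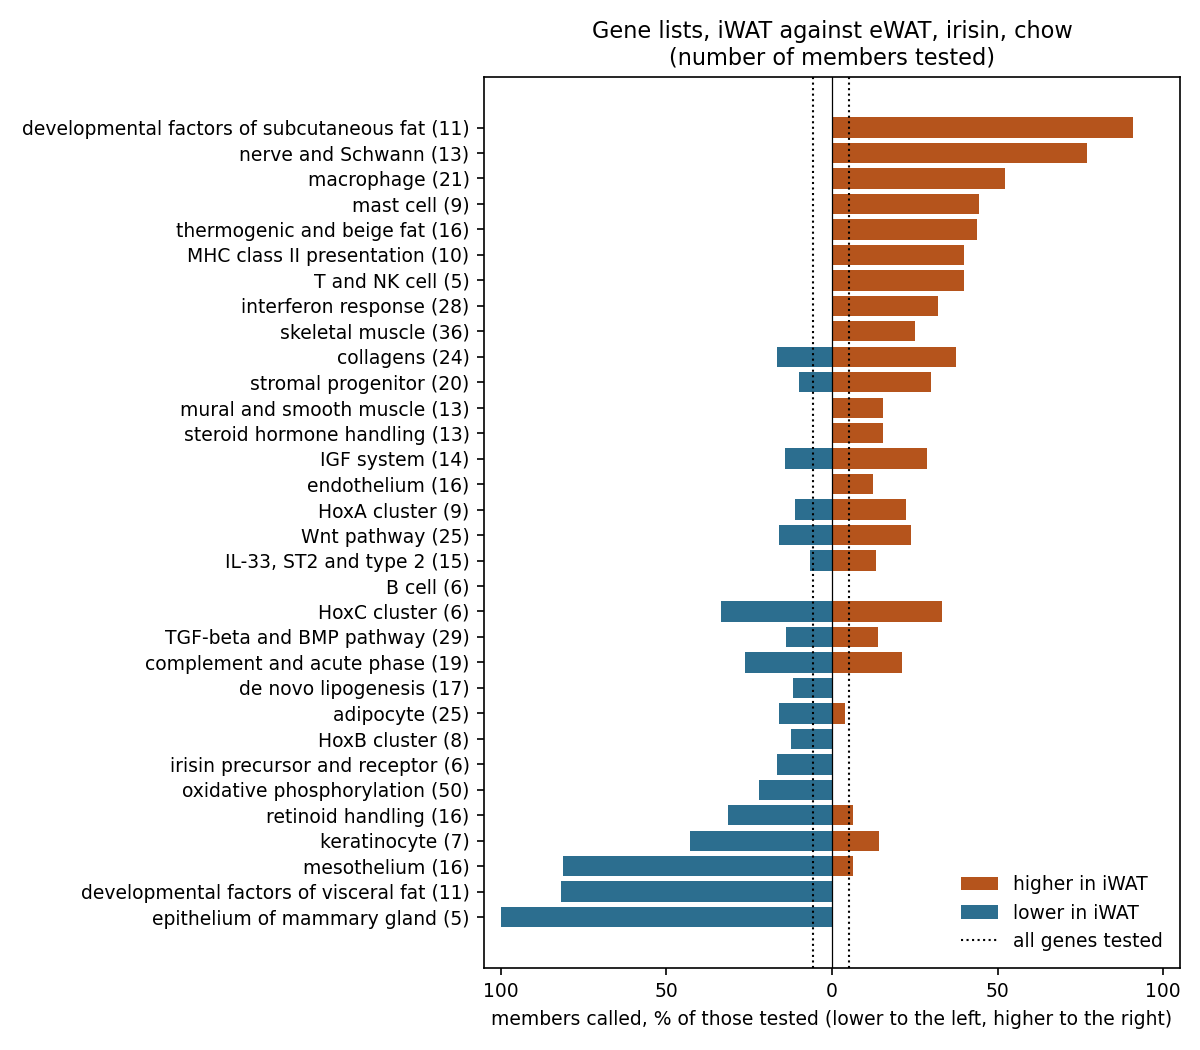
Share of each gene list's tested members called higher (right, orange) or lower (left, blue) in iWAT than in eWAT, for lists with 5 or more members tested (number in parentheses). Dotted lines mark the shares over all genes tested, 5.09% and 5.66%. Developmental factors, nerve and mesothelium lie farthest from them among lists of 10 or more. Members and lists were chosen with earlier results of these data known. The lists include genes that could pass the filter only through the depot where they are high. The order of the lists is therefore a description and is not read as support for a direction.

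The same depots in AAV-GFP mice on chow gave a separate set of libraries. There 94 genes were higher and 285 lower in iWAT, of 14928 tested, or 2.54% in either direction (0.63% higher, 1.91% lower). Of the 1606 genes called in irisin mice outside the muscle set 1517 were tested in GFP mice. There 1340 of them (88.3%) had the same sign, and 303 (20.0%) were called in the same direction, while 0 were called in the other. Those 303 were 85.1% of the 356 genes called in GFP mice and tested here outside the muscle set. The libraries of irisin mice were closer to each other: the median gene's SD of log2(FPKM + 0.5) was 0.200 in iWAT and 0.133 in eWAT of irisin mice, against 0.226 and 0.232 in GFP mice.

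Gene by gene, Tbx15 differed by 4.72 ± 0.14 in irisin mice and 4.07 ± 0.24 in GFP mice, and Upk3b by -8.09 ± 0.16 and -8.20 ± 0.20. Hoxc10 differed by 4.57 and 4.62. In GFP mice 7 of 10 subcutaneous and 6 of 11 visceral factors were called in the same directions, as were 13 of 16 mesothelial and 5 of 10 nerve genes. No macrophage, mast cell, MHC class II or oxidative phosphorylation gene was called there by limma or voom, and limma put 1, 1, 3 and 6 of them under an unadjusted p of 0.05. The medians of these lists were 0.63, 0.77, 0.82 and -0.28 in irisin mice, against -0.26, -0.06, -0.25 and 0.19 in GFP mice. One iWAT library of GFP mice stood apart in these lists: its macrophage sum was 1209 FPKM, against 2870 and 2831 FPKM in the other two, and Ccl8 had 7.42 FPKM there, against 386 and 431 FPKM. Without that library 147 genes were higher and 279 lower in GFP mice, and 67 were called in all without the third eWAT library. Without that iWAT library of GFP mice the vector interaction called 0 genes by limma, with 706 at an unadjusted p under 0.05.

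The difference between the vectors was tested as an interaction in 1 fit of the 12 chow libraries. By limma 0 of 16212 genes were called (0%), with 907 at an unadjusted p under 0.05. Voom on the recovered reads also called 0, with 831 under 0.05. The interaction of Cd68 was 0.91 ± 0.78 (adjusted p = 0.917), and that of Tbx15 0.65 ± 0.27 (adjusted p = 0.874). A missed threshold does not show that the depots differ alike under both vectors.

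On the high-fat diet few genes were called. In AAV-irisin mice on HFD 13 genes were higher and 15 lower in iWAT, of 14654 tested (0.191%, or 0.0887% higher and 0.102% lower), with 2899 at an unadjusted p under 0.05. Of the 1606 genes called on chow 1397 were tested on HFD, 672 (48.1%) had the same sign and 18 were called in the same direction. Without the second eWAT library on HFD 483 were higher and 789 lower. That library had 4.75 FPKM of Spp1 (osteopontin), against 32.3 and 49.7 FPKM in the other eWAT libraries on HFD.

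The diet by depot interaction in irisin mice called 555 of 16266 genes (3.41%, or 2.51% positive and 0.898% negative), 409 with a larger iWAT-minus-eWAT difference on chow and 146 with a smaller one. The largest positive values were those of Spp1 and Gpnmb. Spp1, a matrix protein made by lipid-laden macrophages, averaged 6.48 ± 1.08 FPKM in iWAT and 0.243 ± 0.141 FPKM in eWAT on chow, against 0.633 ± 0.678 and 28.9 ± 22.7 FPKM on HFD (SD, n = 3 each). Its interaction was 7.57 ± 0.97, adjusted p = 0.0203. Gpnmb, a glycoprotein of such macrophages, averaged 18.5 ± 2.17 and 2.46 ± 0.935 FPKM on chow, against 8.95 ± 9.24 and 281 ± 265 FPKM on HFD in the same depot order (7.44 ± 1.16, adjusted p = 0.0212). The chemokine Cxcl13 and Atp6v0d2, a proton pump subunit, followed with 5.72 ± 1.21 and 5.69 ± 1.06. Of the lists, 8 of 21 macrophage, 6 of 13 nerve and 5 of 10 MHC class II genes were called with a positive interaction. None of these lists had a negative call, and the positive share over all genes was 2.51%. Other lists had calls too. Positive were 5 of 25 Wnt (1 negative), 4 of 19 complement, 3 of 24 collagen, 3 of 20 stromal progenitor and 3 of 11 subcutaneous genes. Negative were 3 of 9 HoxA and 2 of 25 adipocyte genes, among others.

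The negative side included Serpina3b, a serpin, Fgf1, a growth factor induced in fat, and Kcnj15, a potassium channel. Fgf1 averaged 3.69 ± 1.97 FPKM in iWAT and 59 ± 15.9 FPKM in eWAT on chow, against 16.4 ± 4.43 and 39.7 ± 16.3 FPKM on HFD (-2.72 ± 0.58, adjusted p = 0.0394). Kcnj15 averaged 2.78 ± 0.769 and 16.4 ± 3.04 FPKM on chow, against 10.4 ± 2.78 and 8.08 ± 0.753 FPKM on HFD (-2.69 ± 0.31, adjusted p = 0.0203). The depot difference of Tbx15 was 4.72 on chow and 3.32 on HFD, with an interaction of 1.40 ± 0.22, adjusted p = 0.0212, and Wt1 had -1.5 ± 0.48, adjusted p = 0.0972. The count of interaction calls depended on single libraries: by limma it was 0 without the second eWAT library on chow or the third iWAT library on HFD (2887 and 3181 genes at an unadjusted p under 0.05), and 2864 without the second eWAT library on HFD.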

How the data were processed

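RNA-seq libraries of whole fat were read from 1 table of FPKM values that the authors deposited. Per the submitters' processing notes, HISAT2 2.0.5 and featureCounts 1.5.0-p3 were used. The sources used here state neither the genome build nor the use of strand. Of the table, 8 columns of group means were not used. Gene lengths in the table turned the deposited FPKM back into whole reads (tolerance 0.01).

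Genes with at least 0.5 FPKM in 3 of the libraries fitted were tested with limma 3.58.1 (R 4.3.3, limma-trend) on log2(FPKM + 0.5), with Benjamini-Hochberg adjustment and calls under 0.05. Interactions were fitted over the 4 groups they compare. The fit was tested on simulated data. Alternatives changed the pseudocount, filter, scaling, weights, samples fitted and tool (voom on the recovered reads), and left out each library. Reads and FPKM carry counting error, and depth is given with the results. Exon overlaps come from GENCODE M21, where 54409 of 54532 IDs were found.

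The named genes were among called protein-coding genes the 12 that rose most and the 12 that fell most, up to 4 called members of each list, and a few fixed genes. A gene moves with muscle where it follows the order of the muscle list over the iWAT libraries and its highest value stands at least 1 log2 unit above all other iWAT libraries. Members and lists were chosen with earlier results of these data known. Outside the rule, Itgav, Prdm16, Lpl, Sfrp2, Gata6, Osr1, Col1a1, En1, Tbx5, Pitx1, Prrx1, Twist1, H19, Fabp4, Plin1 and Epcam were named after their values were seen. Results for a few genes are not reported here. Libraries were fitted without pairing, as the labels do not give the mouse. The same-number correlations between depots were 0.016, 0.026 and 0.094, which cannot decide whether these libraries were paired.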

Additional observations from a re-analysis of the deposited data

Results flagged for a closer look

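The diet by depot interaction in irisin mice (the iWAT-minus-eWAT difference on chow less that on HFD, on the log2 scale) passed its test in 555 genes. It shares the chow libraries with the depot difference, so the 2 are not independent. Among named genes with a larger difference on chow, large values were Spp1 7.57, Gpnmb 7.44, Myh4 6.28, Cxcl13 5.72, Atp6v0d2 5.69, Ccl8 5.36 and Mmp3 5.10. Myh4 belongs to the muscle set. Ctsk had 4.98, Wisp2 4.82, Myoc 4.69, Il1r2 4.41, Ctss 4.32, Cd68 3.97 and C5ar1 3.58.

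Smaller positive values included Apod 2.68, C1qa 2.67, Wnt2 2.35, H2-Ab1 2.26, Dkk2 2.19, Cd74 2.07, Tmem26 1.97, Oas3 1.59, Il1rl1 1.52, Cdh19 1.47, Tbx15 1.40 and Thy1 1.31. Negative values included Serpina3b -3.04, Fgf1 -2.72, Kcnj15 -2.69, Rarres1 -1.72 and Hoxa5 -1.28. Serpina3b averaged 0.154 FPKM in iWAT and 7.93 FPKM in eWAT on chow, against 0.154 and 0.512 FPKM on HFD.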

How the results depend on the processing

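No fold change of a gene named by the rule changed sign under any alternative run. Genes named outside the rule were not part of that check. The balance of calls did turn: 765 genes were higher and 851 lower, against 883 and 725 with voom, 1430 and 1406 with array weights, and 367 and 283, 346 and 287, and 412 and 333 without eWAT libraries 1, 2 and 3 with genes filtered anew. With the same genes tested it turned without iWAT library 2 (1072 and 1011) and iWAT library 3 (559 and 514). The depot difference in irisin mice on chow (1616 genes) gave 2836 with array weights, 964 in 1 fit of the 4 chow groups, 765 in 1 fit of all 8 groups and 707 with at least a 2-fold change. Leaving out 1 library with genes filtered anew gave 633 to 1918. That filter drops genes read in a single depot, so the repeat with the same genes tested, 785 to 2083 (804 and 919 without eWAT libraries 2 and 3, 899 and 1073 without iWAT libraries 1 and 3), was added after seeing the data. In GFP mice (379) array weights gave 1195, no filter 244 and leaving out 1 library 67 to 426. On HFD (28) array weights gave 1445, no filter 10, voom 17 and leaving out 1 library 0 to 1272. The vector interaction (0) had 5 genes with no filter and 0 to 1 without 1 library. The diet interaction (555) had 6147 with array weights, 111 with no filter, 205 with voom and 0 to 2864 without 1 library. The cause of these moves was not tested.

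With the replicate number as a block, the depot difference had 1106 genes in irisin mice on chow (539 higher, 567 lower), 180 in GFP mice and 610 on HFD. The labels do not say whether libraries of the same number share a mouse, and correlations over 3 libraries cannot decide it. In irisin mice on chow iWAT library 1 correlated best with eWAT library 2 (0.045). There iWAT libraries 2 and 3 correlated best with the eWAT library of the same number (0.026 and 0.094). On HFD the same-number correlations were -0.024, 0.417 and -0.217. Of 126 genes called and named by the rule, 65 were called under every alternative that tested them, and 119 with voom. Some of the 126 were not tested in runs that filtered genes anew. All 8 genes named by the rule and not called stayed so. At 14.1 M to 18.4 M reads, genes under the filter of 0.5 FPKM were not tested.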

Other observations

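Other cell types showed small differences between the depots of irisin mice on chow. Of 16 endothelial markers 2 were higher in iWAT and none lower (median 0.06), and of 13 mural and smooth muscle markers 2 were higher and none lower (median 0.67). These shares, 12.5% and 15.4%, stand beside 10.8% over all genes tested. Without iWAT library 2, and with the same genes tested, 7 endothelial and 6 mural markers were called. Without eWAT library 2, eWAT library 3 or iWAT library 1 it was 1 of each, and 1 mural marker without eWAT library 1 or iWAT library 3. By limma the fits of 4 and 8 groups each called 0 endothelial markers, with 3 under an unadjusted p of 0.05, and 1 mural marker, while voom called 2 of each. Of 19 complement and acute phase genes 4 were higher and 5 lower (median -0.03), and the fits of 4 and 8 groups called 2 and 0 of them. Of 13 genes of steroid hormone handling 2 were higher and none lower (median 0.18), a share of 15.4% beside the same 10.8%.

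Genes that code for no protein were among those called outside the muscle set. They included 13 lincRNAs higher and 26 lower in iWAT, 18 antisense RNAs higher and 19 lower, and 6 processed pseudogenes higher and 21 lower. Since the use of strand is not given, antisense RNAs cannot be told apart from the genes they overlap, and pseudogenes may share reads with their parent genes.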
